A study of Mus musculus with 8 samples.

Results

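The genes examined here are the neurotrophin and GDNF signalling genes Bdnf, Ntf3, Ntrk2, Ntrk3, Ngfr, Gdnf, Gfra1 and Ret, taken by name. They are 8 of the 48709 genes listed in the files, and all 8 were among the 16525 genes that passed the filter on low counts and were tested. Their counts came from RNA sequencing of P3 cortex, from 4 dcKO_hGFAP-Cre and 4 control samples of C57BL/6J mice. The dcKO_hGFAP-Cre mice (BAF155 fl/fl; BAF170 fl/fl; hGFAP-Cre) lack both scaffold subunits of the BAF chromatin remodelling complex in the Cre-expressing lineage, and the mutants die soon after birth. Per the methods, controls had the same Cre and 1 floxed copy of BAF155 and of BAF170, although their sample titles read wild type. The Cre line uses a human GFAP promoter that acts in radial glia of the dorsal telencephalon and their progeny, and cells of other lineages, such as those of vessels, keep both genes. Neither the pooling of animals nor the litters are stated, and p-values measure only the spread between these samples. Smarcc1 and Smarcc2, the deleted genes, were both lower in the mutant libraries, with log2 fold changes of -0.97 (SE 0.0818, adjusted p = 5.44e-06) and -0.77 (SE 0.0795, adjusted p = 2.28e-05, edgeR's quasi-likelihood test).

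Neurotrophins are secreted proteins that keep neurons alive and shape their dendrites and synapses. BDNF, the product of Bdnf, acts mainly through the receptor tyrosine kinase TrkB (Ntrk2), and NT-3, the product of Ntf3, acts mainly through TrkC (Ntrk3). The p75NTR receptor (Ngfr) binds all neurotrophins and, with sortilin-family partners, their uncleaved precursors. GDNF is a more distant ligand. It binds the membrane-anchored co-receptor GFRα1 (Gfra1), and this pair engages the receptor tyrosine kinase RET (Ret), while GFRα1 can also signal with the adhesion molecule NCAM where RET is scarce. In the cortex, TrkB is found on neurons and, in a truncated form without the kinase, on astrocytes.

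Libraries held between 21126713 and 31805395 counts in control and between 22002784 and 32110285 in dcKO_hGFAP-Cre samples, so that 3 counts in a library corresponded to between 0.0906 and 0.148 CPM. CPM is counts per 1000000, normalised between libraries by edgeR's TMM method. That floor covers counting error only, while the 95% intervals of fold changes given with edgeR include the spread between samples. The libraries differed in cell markers. The summed markers of cortical excitatory neurons lay between 957 and 1138 CPM in dcKO_hGFAP-Cre against 1788 to 1969 CPM in control libraries, and 6 of the 8 markers were lower. Markers of GABAergic interneurons summed to 820 to 886 CPM against 497 to 524 CPM, with 7 of 8 higher. Those of striatal projection neurons reached 365 to 703 CPM against 122 to 175 CPM, with 5 of 8 higher. Summed oligodendrocyte precursor markers were 234 to 312 CPM against 422 to 456 CPM, with 6 of 6 lower. Markers of the choroid plexus stood at 605 and 1159 CPM in dcKO_hGFAP-Cre replicates 1 and 2 and at 3.69 to 19.1 CPM in the other 6 libraries. Summed markers of astrocytes and radial glia were 1253 to 1565 CPM in 3 mutant libraries, 2864 CPM in dcKO_hGFAP-Cre replicate 3 and 1928 to 2032 CPM in control.

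For the 2 members that passed the test, the 250 bases upstream of an annotated start were taken from RefSeq. RefSeq's promoter table (GRCm38.p6) held entries for 6 of the 8 members. Ntf3 has 2 entries, of which the shown one, chr6:126164961-126165210 on the minus strand, holds no annotated exon. It lies inside the Ntf3 gene, before an internal start. The other entry, chr6:126166745-126166994, spans the annotated 5′ end of the gene. It holds 166 exon bases and was neither searched nor shown. The Ntrk2 window is chr13:58806319-58806568 on the plus strand. Both are written 5′ to 3′ on the strand of the gene, and capitals mark a match to the GC box GGGCGG.
Ntf3: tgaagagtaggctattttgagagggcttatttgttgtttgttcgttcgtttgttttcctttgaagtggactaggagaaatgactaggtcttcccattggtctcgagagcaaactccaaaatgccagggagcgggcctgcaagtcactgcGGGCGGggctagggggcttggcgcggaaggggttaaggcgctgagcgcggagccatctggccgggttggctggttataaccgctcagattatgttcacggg
Ntrk2: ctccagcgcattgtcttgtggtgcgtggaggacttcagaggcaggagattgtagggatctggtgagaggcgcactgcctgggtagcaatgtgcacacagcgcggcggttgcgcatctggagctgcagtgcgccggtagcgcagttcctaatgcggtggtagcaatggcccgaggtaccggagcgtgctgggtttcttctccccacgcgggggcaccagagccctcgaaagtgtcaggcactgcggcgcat
The windows have a GC content of 54% and 62.8%. Both strands were searched for the TATA box TATAAA, the GC box GGGCGG, the cAMP response element TGACGTCA, the AP-1 site TGANTCA and the E-box CAGCTG. The Ntf3 window held the GC box and the Ntrk2 window held none of these letters. Of 32817 promoter windows of the same length, 32.7% held the GC box, 12.4% the TATA box, 1.55% the cAMP response element, 6.75% the AP-1 site and 13% the E-box. No binding was measured in these samples.

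Expression of the 8 genes was first compared between dcKO_hGFAP-Cre and control cortex. Ntf3 and Ntrk2 were lower in the mutant, and no member was higher. The 2 lower genes are 25.0% of the members, while 18.9% of all tested genes were lower and 18.6% higher in the same edgeR fit (quasi-likelihood, Benjamini-Hochberg over all tested genes, threshold 0.05). At an unadjusted p under 0.05 the count of higher members was also 0, and it was 0 by DESeq2 and by limma-voom. Of the 8 log2 fold changes, 7 were negative and 1 was positive, with a median of -0.24 against 0.02 over all tested genes. In bulk tissue, fewer cells of a type cannot be told apart from less RNA per cell.

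Among the ligands, Ntf3 (ENSMUSG00000049107, chr6:126101412-126166910, minus strand, mm10) had the largest change of the 8. Its level in control replicates 1 to 4 was 9.53, 11.2, 16.6 and 13.3 CPM, from 207, 228, 500 and 382 counts. In dcKO_hGFAP-Cre replicates 1 to 4 it was 1.58, 2.42, 2.97 and 1.90 CPM, from 37, 57, 87 and 63 counts. Every mutant library thus lay below every control library. The mean fell from 12.7 ± 3.04 CPM to 2.22 ± 0.607 CPM (SD, n = 4 each). The fold change was 5.7-fold lower, a log2 fold change of -2.51 (SE 0.221, 95% interval -2.99 to -2.03, adjusted p = 6.88e-06, edgeR's quasi-likelihood test). The exact two-sided permutation test over samples gave p = 0.0286, the smallest that 4 against 4 allow. Every mutant library lay below every control in 17.7% of all tested genes.

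The fall of Ntf3 was seen in each sequencing lane. The log2 ratio of mutant to control mean CPM was -2.38 in lane 5, which held replicates 1 and 2 of both groups, -2.48 in lane 6 with replicate 3, and -2.80 in lane 7 with replicate 4. Lanes 6 and 7 hold 1 library of each group, too few for a test. The summed excitatory neuron markers also moved with the group. Set against those markers, Ntf3 amounted to 5.33 to 8.43 CPM per 1000 CPM of markers in control and 1.56 to 2.98 in mutant libraries, so the groups did not overlap on this scale. This scale was chosen after the values were seen and was not tested.

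Bdnf (ENSMUSG00000048482, chr2:109674700-109727007, plus strand), the other neurotrophin of the list, had low counts in both groups. It measured 3.13, 3.80, 3.98 and 3.09 CPM in control replicates 1 to 4, from 68, 77, 120 and 89 counts. The dcKO_hGFAP-Cre libraries gave 2.22, 3.05, 2.73 and 3.14 CPM, from 52, 72, 80 and 104 counts. Of the 4 mutant libraries, 3 lay below all controls and replicate 4 lay among them. The means were 3.50 ± 0.457 and 2.79 ± 0.414 CPM (SD, n = 4 each). The log2 fold change was -0.33 (SE 0.178, 95% interval -0.713 to 0.0604, adjusted p = 0.167, edgeR), which did not pass the test. An antisense gene, Gm45346, overlaps 14.4% of the Bdnf exons, and it held 0 or 1 count per library.

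Gdnf (ENSMUSG00000022144, chr15:7810846-7837575, plus strand), the ligand of GFRα1, was close to the limit of detection. It had 3, 13, 12 and 16 counts in control and 9, 5, 18 and 9 counts in dcKO_hGFAP-Cre replicates 1 to 4, with no order between the groups. The means were 0.433 ± 0.221 CPM for control and 0.371 ± 0.177 CPM for mutant libraries (SD, n = 4 each). The log2 fold change of -0.22 had a 95% interval from -1.19 to 0.759 (adjusted p = 0.735, edgeR), and no difference was detectable at this depth.

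**Figure D1:**
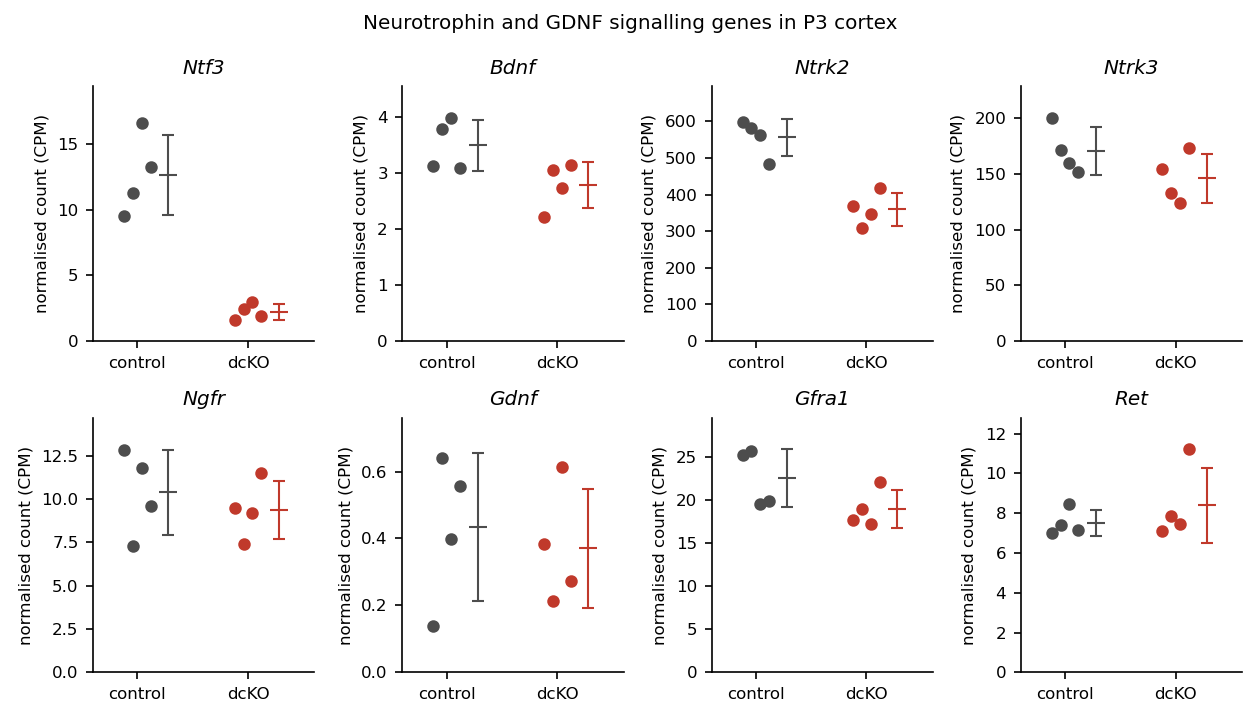
Normalised count (CPM, linear axes from 0) of the 8 genes in each of 4 control (grey) and 4 dcKO_hGFAP-Cre (red) P3 cortices, 1 point per library in the order of replicates 1 to 4, with the mean and SD beside them. The points of Ntf3 and Ntrk2 do not overlap between groups (1.58 to 2.97 against 9.53 to 16.6 CPM for Ntf3), while those of the other 6 genes do.

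Of the receptors, Ntrk2 (ENSMUSG00000055254, chr13:58806569-59133970, plus strand), which encodes TrkB, was the second gene to pass the test. Control replicates 1 to 4 held 599, 581, 561 and 483 CPM. The dcKO_hGFAP-Cre replicates held 368, 308, 346 and 417 CPM, each below the lowest control, as in 17.7% of all tested genes. The mean fell from 556 ± 50.9 CPM to 360 ± 45.4 CPM (SD, n = 4 each), which is 1.55-fold lower. The log2 fold change was -0.63 (SE 0.0984, 95% interval -0.842 to -0.415, adjusted p = 4.51e-04, edgeR). The exact two-sided permutation test gave p = 0.0286, the smallest that 4 against 4 allow. Within lanes 5, 6 and 7 the log2 ratio of means was -0.80, -0.70 and -0.21. Counts cover the whole gene, so the kinase form and the truncated form of TrkB are summed. Per 1000 CPM of summed excitatory neuron markers, Ntrk2 amounted to 246 to 335 CPM in control and 322 to 366 CPM in mutant libraries. On that scale, chosen after the values were seen, the groups overlapped. Astrocytes also express Ntrk2, and dcKO_hGFAP-Cre replicate 3, in which astrocyte and radial glia markers were highest, held the second lowest Ntrk2 level of the 4 mutant libraries. In the other mutant libraries these markers summed to 1253 to 1565 CPM, below the 1928 to 2032 CPM of control. The part of these cell types in the change of Ntrk2 was not tested.

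Ntrk3 (ENSMUSG00000059146, chr7:78175959-78738012, minus strand), the TrkC gene, showed a smaller difference. Its level was 201, 171, 160 and 152 CPM in control and 154, 133, 124 and 173 CPM in dcKO_hGFAP-Cre replicates 1 to 4. The groups overlapped through mutant replicates 1 and 4. The means were 171 ± 21.5 and 146 ± 22.1 CPM (SD, n = 4 each), and the log2 fold change was -0.22 (SE 0.116, 95% interval -0.475 to 0.027, adjusted p = 0.145, edgeR). Without dcKO_hGFAP-Cre replicate 4 the log2 fold change was -0.31 and the adjusted p was 0.0463, so this library decided whether Ntrk3 passed.

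Ngfr (ENSMUSG00000000120, chr11:95568818-95587735, minus strand), which encodes p75NTR, varied more within groups than between them. It measured 12.8, 7.30, 11.8 and 9.58 CPM in control and 9.45, 7.42, 9.18 and 11.5 CPM in dcKO_hGFAP-Cre replicates 1 to 4. The log2 fold change was -0.14 (SE 0.183, 95% interval -0.539 to 0.252, adjusted p = 0.565, edgeR).

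The GDNF receptor genes did not pass the test. Gfra1 (ENSMUSG00000025089, chr19:58235604-58455909, minus strand) measured 25.3, 25.7, 19.6 and 19.9 CPM in control replicates 1 to 4. The dcKO_hGFAP-Cre replicates gave 17.7, 19.0, 17.2 and 22.1 CPM, of which the first 3 lay below all controls. Its log2 fold change was -0.25 (SE 0.127, 95% interval -0.524 to 0.0261, adjusted p = 0.14, edgeR). Ret (ENSMUSG00000030110, chr6:118151745-118197718, minus strand) was the member with a positive value. It measured 7.0, 7.39, 8.47 and 7.15 CPM in control and 7.10, 7.84, 7.47 and 11.2 CPM in dcKO_hGFAP-Cre replicates 1 to 4, and the mutant spread came from replicate 4. The log2 fold change was 0.17 (SE 0.16, 95% interval -0.182 to 0.513, adjusted p = 0.44, edgeR).

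**Figure D2:**
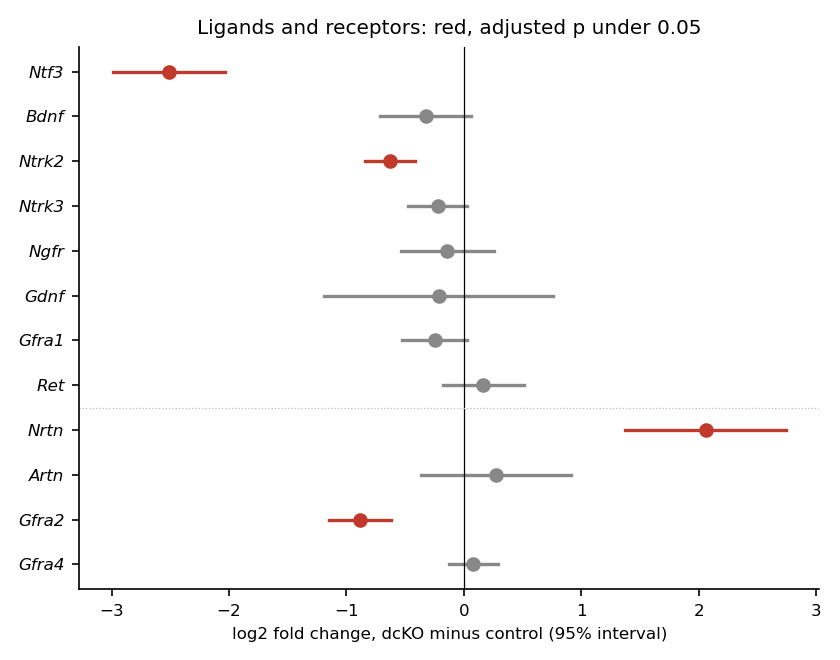
Log2 fold change (dcKO_hGFAP-Cre minus control) with its 95% interval for the 8 genes (above the dotted line) and 4 of the other ligands and receptors of both families (below it). Red marks an adjusted p under 0.05, reached by Ntf3 (-2.51), Ntrk2 (-0.63), Gfra2 (-0.89) and Nrtn (2.06).

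The members were then ranked by level per length, as CPM per kb of merged exons. In control cortex the order was Ntrk2 (28.8 ± 2.64), Ntf3 (7.38 ± 1.77), Ntrk3 (5.66 ± 0.711), Gfra1 (4.13 ± 0.613), Ngfr (3.01 ± 0.714), Ret (1.11 ± 0.0981), Bdnf (0.563 ± 0.0736) and Gdnf (0.118 ± 0.0601), each as mean and SD of 4 libraries. Ntf3 and Ntrk3 overlapped in this order, at 5.56 to 9.69 and 5.03 to 6.65 CPM per kb, and so did Gfra1 and Ngfr, at 3.57 to 4.70 and 2.12 to 3.73 CPM per kb. In dcKO_hGFAP-Cre cortex Ntf3 stood at rank 5, at 1.29 ± 0.354 CPM per kb, next to Ret at 1.24 ± 0.279, and these did not differ beyond their spread. In the mutant the TrkC gene, at 4.85 ± 0.733 CPM per kb, stood above its ligand gene. The place of Ntf3 depends on the length used. With the longest transcript in place of merged exons it moved from rank 3 in control to rank 6 in the mutant. On that length the mean of Ntrk3 was above that of Ntf3 in control too, at 8.67 against 8.53 CPM per kb, with overlapping ranges.

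Ratios of 2 genes within a library do not depend on the scaling between libraries, and 3 were compared. The ratio of Bdnf to Ntf3 counts was 0.329, 0.338, 0.240 and 0.233 in control replicates 1 to 4. It was 1.41, 1.26, 0.920 and 1.65 in dcKO_hGFAP-Cre replicates 1 to 4. Raw Bdnf counts thus exceeded those of Ntf3 in 3 of 4 mutant libraries and in 0 of 4 controls. These counts are not corrected for length, and the merged exons of Bdnf span 6.217 kb against 1.714 kb for Ntf3. Per kb of merged exons Ntf3 stayed above Bdnf in the mutant, at means of 1.29 and 0.448 CPM per kb. On the log2 scale the means were -1.83 ± 0.286 and 0.36 ± 0.356 (SD, n = 4 each), a difference of 2.19 (exact two-sided permutation test, p = 0.0286, adjusted over the 3 ratios 0.0429). The log2 fold changes of the single genes were -2.51 for Ntf3 and -0.33 for Bdnf, of which the first passed the test. The ratio of Ntrk2 to Ntrk3 was 2.98 to 3.51 in control and 2.31 to 2.79 in mutant libraries. Its log2 mean fell from 1.71 ± 0.103 to 1.30 ± 0.121, a difference of -0.40 (exact permutation p = 0.0286, adjusted 0.0429), higher in 4 of 4 control libraries. This call was lost (exact permutation p = 0.0571) when control replicate 2, 3 or 4 was left out. The ratio of Gfra1 to Ret overlapped between the groups, with a log2 difference of -0.39 (exact permutation p = 0.0857, adjusted 0.0857), and without control replicate 3 it was -0.52 with p = 0.0286.

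**Figure D3:**
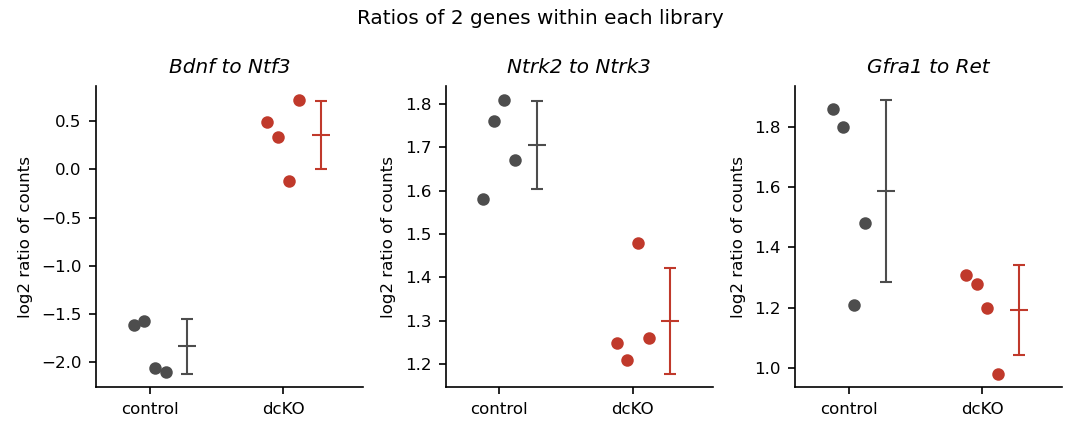
Log2 ratio of counts of 2 genes within each of 4 control (grey) and 4 dcKO_hGFAP-Cre (red) libraries, with mean and SD beside the points. The groups do not overlap for Bdnf to Ntf3 (-2.10 to -1.57 in control, -0.12 to 0.72 in the mutant) or Ntrk2 to Ntrk3, and overlap for Gfra1 to Ret.

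Genes whose levels over the 8 libraries were most like those of the called members were listed by the root mean square difference of centred log2 CPM. For Ntf3 they included 1110002E22Rik (0.203), with means of 5.08 CPM in control and 0.903 CPM in the mutant, and Susd5 (0.212), with 2.70 and 0.403 CPM. For Ntrk2 they were Ptprt (0.0694), Cpd (0.0712) and Nav1 (0.0725), with means of 204, 110 and 543 CPM in control and 131, 72.5 and 368 CPM in the mutant. As the 8 libraries hold both groups, the difference between the groups is part of this measure.

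Other genes of both pathways were examined in 6 lists with 117 genes, of which 110 were tested. In the mutant 45 were lower (40.9%) and 13 higher (11.8%), with a median log2 fold change of -0.21, while over all tested genes 18.9% were lower and 18.6% higher. Without dcKO_hGFAP-Cre replicates 1 and 2, which held choroid plexus markers, 29 were lower and 9 higher. Calls over all tested genes also fell in that fit, to 1581 lower and 1388 higher of 17229, from 3128 and 3074 of 16525. With library totals in place of TMM, 31 were lower and 17 higher, and over all 16525 genes 2102 were lower and 4584 higher.

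Among the other ligands and receptors, 5 of 11 genes were tested, with 1 lower and 1 higher, and between 0 and 2 higher over the alternative settings. Gfra2, the co-receptor for neurturin, was lower, at 27.6, 31.8, 40.0 and 33.4 CPM in control and 17.3, 18.4, 15.9 and 20.4 CPM in dcKO_hGFAP-Cre replicates 1 to 4. Its log2 fold change was -0.89 (SE 0.124, adjusted p = 1.98e-04, edgeR). Nrtn, which encodes neurturin, the ligand of GFRα2, went the other way. It had 6, 3, 12 and 8 counts in control and 33, 23, 42 and 32 in mutant libraries, that is 0.275 ± 0.102 and 1.20 ± 0.261 CPM (SD, n = 4 each), with a log2 fold change of 2.06 (SE 0.316, adjusted p = 3.94e-04, edgeR). All 4 mutant libraries lay above all controls for Nrtn, as in 16.7% of all tested genes. Within lanes 5, 6 and 7 its log2 ratio of means was 2.49, 1.85 and 1.80. Levels per length were 9.38 and 5.08 CPM per kb for Gfra2 and 0.269 and 1.17 CPM per kb for Nrtn, in control and mutant respectively. Of the others, Artn (0.27, adjusted p = 0.494) and Gfra4 (0.08, adjusted p = 0.533) did not pass.

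**Figure D4:**
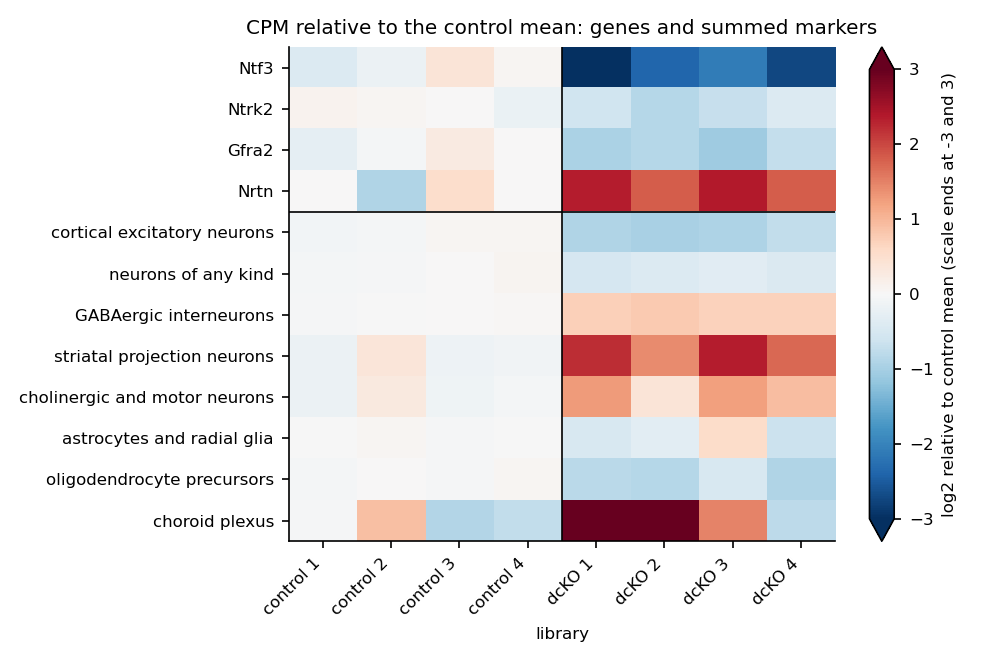
Log2 of CPM relative to the control mean for 4 genes (top) and 8 summed marker lists (bottom) in each of the 8 libraries, on a colour scale that ends at -3 and 3. Ntf3 is low in all 4 mutant libraries (-3.0 to -2.09), choroid plexus markers are high in dcKO_hGFAP-Cre replicates 1 and 2 (6.47 and 7.41, past the end of the scale), and striatal markers are high in all 4 (1.41 to 2.36).

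Genes that cleave, sort and release neurotrophin precursors were the list with the largest share of lower genes, 9 of 15 tested (60.0%) and 0 higher, with a median log2 fold change of -0.33. At an unadjusted p under 0.05 the edgeR count of higher genes was also 0, as by DESeq2 and limma-voom, and it was 1 with library totals and without control replicate 1. Sorcs1 and Sorcs2 encode sortilin-family sorting receptors, and Pcsk5 a proprotein convertase. Sorcs1 fell from 55.3 ± 2.94 to 24.9 ± 1.77 CPM (log2 fold change -1.15, SE 0.0857, adjusted p = 2.52e-06, edgeR). Sorcs2 (-1.11, adjusted p = 1.43e-04) and Pcsk5 (-1.06, adjusted p = 4.54e-05) fell as well. In all 3, every mutant library lay below every control, as in 17.7% of all tested genes.

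Of the co-receptors, p75NTR effectors and receptor modulators, 10 of 19 were lower (52.6%) and 2 higher (10.5%), with a median of -0.28. Without dcKO_hGFAP-Cre replicates 1 and 2 the edgeR counts were 6 and 0, in a fit where 1581 of all 17229 tested genes were lower and 1388 higher. Rtn4r, which encodes the Nogo receptor, and Lingo1 partner with p75NTR at the membrane. Rtn4r fell from 59.2 ± 15.3 to 21.1 ± 2.12 CPM (log2 fold change -1.49, SE 0.165, adjusted p = 5.59e-05, edgeR), and Lingo1 from 309 ± 30.8 to 142 ± 16.0 CPM (-1.12, SE 0.0979, adjusted p = 6.7e-06). Lrig1, an inhibitor of receptor tyrosine kinases, was lower (-0.83, adjusted p = 0.0151), and its relative Lrig3 was higher (0.69, adjusted p = 0.0115). Irak1, a kinase linked to p75NTR, was higher (0.39, adjusted p = 0.0256). Without dcKO_hGFAP-Cre replicates 1 and 2, which leaves 2 mutant libraries, Lrig1, Lrig3 and Irak1 kept their direction at log2 fold changes of -0.61, 0.48 and 0.34 but did not pass (adjusted p = 0.118, 0.164 and 0.201, edgeR). Without replicates 1 and 3, Lrig1 was at -1.19 (adjusted p = 2.81e-05), and without a filter on low counts at -0.84 (adjusted p = 0.0807). Irak1 did not pass in 7 of 18 settings, with log2 fold changes of 0.32 to 0.51 over all of them.

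Of the adaptors and effectors of Trk and RET receptors, 14 of 34 were lower (41.2%) and 3 higher (8.82%), with a median of -0.21. This count depended on the settings, being 5 lower with library totals, 6 without dcKO_hGFAP-Cre replicates 1 and 2 or 1 and 3, and 9 without dcKO_hGFAP-Cre replicate 1. Lower calls over all tested genes in these fits were 2102, 1581, 2482 and 2631 respectively, against 3128 in the main fit. Dok5, a docking protein of RET and Trk receptors, fell from 133 ± 17.5 to 34.5 ± 8.22 CPM (log2 fold change -1.95, SE 0.154, adjusted p = 6.02e-06, edgeR). The related Dok4 (-0.92, adjusted p = 1.41e-04) and Pik3r1, the regulatory subunit of PI3-kinase (-0.90, adjusted p = 2.07e-05), were lower too. The Dok4 exons overlap those of Polr2c over 31.2% of their length, so its count is uncertain. Higher were the adaptor genes Grb7 (1.08, adjusted p = 7.18e-04), Grb10 (0.62, adjusted p = 4.71e-04) and Shc2 (0.44, adjusted p = 0.0106).

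Genes induced downstream of Trk and RET signalling, with the feedback inhibitors, gave 9 of 23 lower (39.1%) and 4 higher (17.4%), with a median of -0.21. They did not move one way. Vgf, a secreted neuropeptide precursor induced by neurotrophins, fell from 72.5 ± 10.4 to 36.1 ± 5.92 CPM (log2 fold change -1.01, SE 0.129, adjusted p = 1.11e-04, edgeR). Spry4, a feedback inhibitor (-0.91, adjusted p = 3.87e-04), and Etv5, a transcription factor of the ETS family (-0.86, adjusted p = 6.48e-05), were also lower. Among the immediate early genes, Fos (1.54, adjusted p = 1.96e-04), Npas4 (1.15, adjusted p = 8.95e-04), Egr1 (1.13, adjusted p = 0.00612) and Arc (0.78, adjusted p = 0.0259) were higher. Egr2 (0.36, adjusted p = 0.137), Egr4 (0.33, adjusted p = 0.599), Junb (0.29, adjusted p = 0.248), Egr3 (-0.40, adjusted p = 0.291) and Nr4a1 (-0.21, adjusted p = 0.31) did not pass. Fos rose from 3.23 ± 1.18 to 9.30 ± 1.03 CPM (SD, n = 4 each), and all 4 mutant libraries lay above all controls, as in 16.7% of all tested genes. These genes respond to many stimuli besides neurotrophins.

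Transcriptional regulators with known action on Bdnf gave 2 of 14 lower (14.3%) and 3 higher (21.4%), with a median of -0.04, close to that of all genes. Mef2c, an activity-dependent transcription factor and a gene of excitatory neurons, fell from 1681 ± 145 to 619 ± 32.1 CPM (log2 fold change -1.44, SE 0.077, adjusted p = 3.99e-07, edgeR). Bhlhe40, a repressor, was lower (-1.01, adjusted p = 7.24e-06). Nfatc4 (0.66, adjusted p = 0.00465), Carf (0.44, adjusted p = 0.00469) and the repressor Rest (0.43, adjusted p = 0.0136) were higher, and without dcKO_hGFAP-Cre replicates 1 and 2 the count of higher genes was 0. Higher calls over all tested genes fell too in that fit, to 1388 of 17229. The list's count of lower genes was 5 without dcKO_hGFAP-Cre replicate 4.

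**Figure D5:**
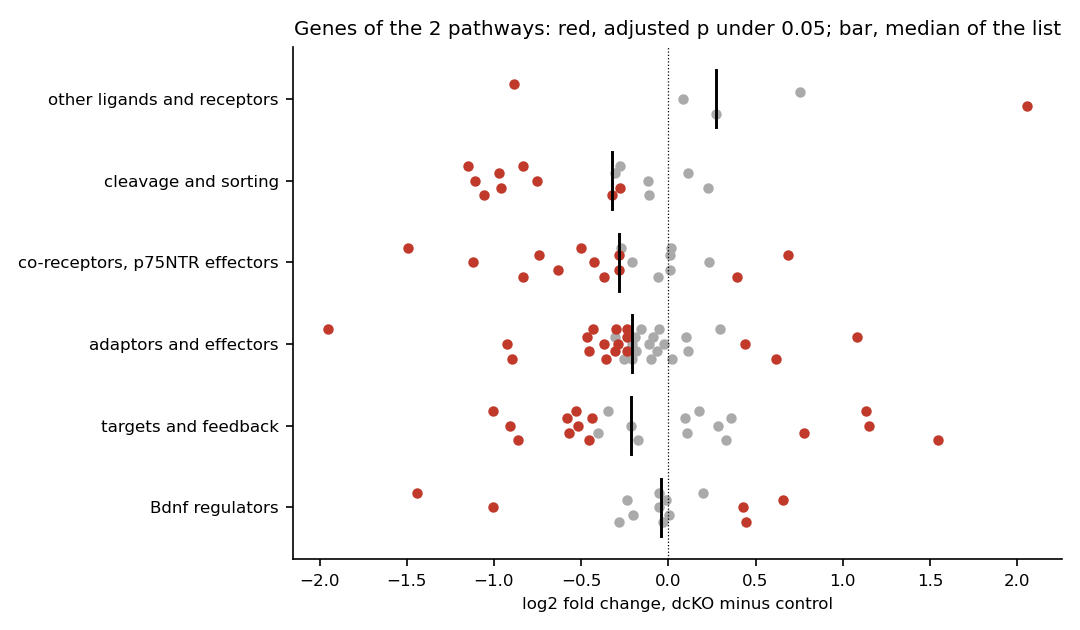
Log2 fold change (dcKO_hGFAP-Cre minus control) of the 110 tested genes of the 6 lists, 1 point per gene, red for an adjusted p under 0.05, with a bar at the median of each list. The medians lie between -0.33 (cleavage and sorting) and 0.27 (other ligands and receptors, 5 genes).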

How the data were processed

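The authors deposited raw counts per gene, 1 file per sample, made with featureCounts on the mm10 genome from TruSeq libraries. The aligner, annotation, strand setting and handling of multi-mapping reads are not given in the sources used here. Symbols (48349 of 48709 genes), coordinates and exon lengths came from GENCODE's annotation of mm10. Samples were grouped by the labels. Counts were tested with edgeR 4.0.16 (R 4.3.3; robust quasi-likelihood, TMM, minimum count 10, no block), adjusted over 16525 genes with a threshold of 0.05. DESeq2 1.42.0 and limma-voom (limma 3.58.1) were alternatives, with other scalings and filters, lane or replicate blocks and each replicate left out. Exact permutation tests used 70 arrangements. Replicates differed beyond counting noise. The tests were tried on simulated counts with 200 genes changed 2-fold. Of these, edgeR recovered 81%, DESeq2 81.5% and limma-voom 79.5%. False calls were 8.48% of all calls by edgeR, 14.2% by DESeq2 and 8.62% by limma-voom, more than the threshold of 0.05 allows for. The analysis was set to go on only if edgeR met fixed limits on both rates. In the data 37.5% of tested genes were called, a far larger share than was changed in the simulation. Changes smaller than 2-fold were not simulated. Members, lists and the naming rule were chosen with earlier results of these data known. Named were the members, the deleted genes, up to 3 higher and 3 lower called genes of each list by size of change, and the 3 genes most like each called member, with a mean of at least 1 CPM. Artn, Gfra4, Arc, Egr2, Egr3, Egr4, Junb and Nr4a1 were named after their values were seen. Some genes are not reported here.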

Additional observations from a re-analysis of the deposited data

Results flagged for a closer look

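In 3 of 80 groups of 4 samples, 1 library stood apart from the other 3, where chance gives about 1 in 20. All 3 were the same library, dcKO_hGFAP-Cre replicate 3, and in each it was the highest of the mutant libraries. It held 35.4 CPM of Sorcs2 (the others 21.4 to 23.8), 43.2 CPM of Lrig1 (20.4 to 22.5) and 46.6 CPM of Dok5 (28.6 to 31.4). The same library had the highest summed markers of astrocytes and radial glia, 2864 CPM against 1253 to 1565 CPM in the other mutant libraries, and their part in these values was not tested.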

How the results depend on the processing

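Over 18 alternatives Ntf3 stayed between -2.69 and -2.35 (highest adjusted p = 5.02e-04) and Ntrk2 between -0.70 and -0.51 (highest adjusted p = 0.0152), as log2 fold changes in edgeR, DESeq2 or limma. The count of lower members was 2 in all but the one without dcKO replicate 4, where it was 3. Bdnf, Ntrk3, Ngfr, Gfra1 and Ret kept their sign. Without dcKO replicates 1 and 2, a setting added after seeing the data, 1581 genes were lower and 1388 higher, 29 list genes were lower, and Gdnf reversed to 0.0122 (adjusted p = 0.99, edgeR). The cause was not tested. Gdnf had no value in 2 leave-one-out fits and in the filter of at least 10 counts in every sample, where Nrtn had none either. Library totals gave 2102 lower and 4584 higher genes (31.4% of calls lower, against 50.4% with TMM) and shifted the median log2 fold change by 0.121. Leaving out each replicate gave 2375 to 3273 lower and 2199 to 3308 higher genes, 38 to 48 lower list genes, ratio differences of -0.464 to -0.368 for Ntrk2 to Ntrk3, and -0.516 to -0.300 for Gfra1 to Ret. Same-numbered samples shared a lane, but no source says that they were related (correlations of deviations 0.171, -0.0679, 0.213 and -0.0238). The replicate block gave 2982 lower and 2932 higher genes and 2 lower members. With swaps within pairs, the ratio differences of 2.19 and -0.404 had p = 0.125, the smallest 4 pairs allow by exact permutation. Gdnf had 3 to 18 counts per library.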
